A study of Mus musculus with 2 samples.

Results

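Mir122 and the clustered genes Mir192, Mir194-2, Mir194-1 and Mir215 are 5 microRNA loci known from hepatocytes, and they were chosen by gene symbol from the 1973 microRNA genes in the deposited count tables. All 5 had an entry and all 5 were detected in both livers. The data are microRNA-seq libraries from total RNA of whole liver of newborn B6NCrl mice, an unmanipulated C57BL/6N strain, at age 0 days, with inserts below 30 bases. The labels record 1 liver from each of 2 pups of the same pregnant female, the sex of the pups was not collected, and there is no treatment, allele, other age or other tissue. Both libraries therefore form 1 group of 2 biological replicates, replicate 1 from pup 1 and replicate 2 from pup 2, and whole liver holds blood, vessel and bile duct cells besides hepatocytes. Levels are counts per 1000000 (CPM), that is, gene-strand counts of a gene scaled to the gene-strand microRNA counts of its library. Replicate 1 held 3422622 such counts and replicate 2 held 4538427.

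A microRNA gene is transcribed as part of a long primary transcript, from which a hairpin is cut out and then trimmed to a mature strand that guides the silencing complex to target mRNAs, mainly through the seed, bases 2 to 8. Mir122 encodes the microRNA that defines hepatocytes in vertebrate liver, where it acts on genes of cholesterol and lipid metabolism and holds down genes that the mature hepatocyte does not use. Mir192, Mir194 and Mir215 come from a pair of duplicated clusters, each with 1 gene of the Mir192/Mir215 seed family and 1 copy of Mir194, and they are known from liver, intestine and kidney epithelium.

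The sequences below show which of these genes can be told apart by a read of microRNA size. RefSeq sequences on build GRCm38.p6, the same assembly as mm10, were matched by symbol for 4 of the 5 genes; Mir122 is described by its counts only. In the mature strands from the 5′ arm, written 5′ to 3′, capitals mark the seed.
mmu-miR-192-5p: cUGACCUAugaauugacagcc
mmu-miR-215-5p: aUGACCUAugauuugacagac
mmu-miR-194-5p: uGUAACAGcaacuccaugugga
The first and second of these share their seed and 18 of 21 bases. They differ at C1A, A12U and C20A, with positions counted from 1 at the 5′ end and the base of miR-192-5p given first. In the RefSeq table, the seed of miR-192-5p and miR-215-5p was found in these genes alone, and that of miR-194-5p in the Mir194 copies alone. The seed of the 3′ strand of Mir194-2 also occurs in Mir7055, which has no entry in the count tables, and in Mir6926, with 0 counts in replicate 1 and 1 in replicate 2.

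The hairpins follow with both annotated mature arms in capitals, since these are the stretches that mature reads cover.
Mir192: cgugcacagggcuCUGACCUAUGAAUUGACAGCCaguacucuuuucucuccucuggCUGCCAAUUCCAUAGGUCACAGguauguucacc
Mir194-2: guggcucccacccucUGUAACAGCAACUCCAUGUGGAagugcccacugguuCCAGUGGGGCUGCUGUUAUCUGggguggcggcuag
Mir194-1: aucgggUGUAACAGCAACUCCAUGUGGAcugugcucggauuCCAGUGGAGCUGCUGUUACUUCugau
Mir215: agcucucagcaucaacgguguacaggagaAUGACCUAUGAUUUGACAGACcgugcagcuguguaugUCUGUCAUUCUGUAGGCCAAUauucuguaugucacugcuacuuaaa
The longest stretch that the hairpins of Mir194-2 and Mir194-1 have in common is 22 bases, and it is exactly miR-194-5p. A read that lies within those 22 bases matches both loci equally, whereas any window of 23 bases was found in 1 of the hairpins alone. The 3′ arms of the Mir194 copies differ at 4 of 22 bases (A8G, C19U, U20C and C22G, with the base of miR-194-1-3p first). Mir192 and Mir215 share at most 10 bases in a row, and 0 of their windows of 16 bases occurred in another of the 1005 hairpins in the RefSeq table.

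**Figure D1:**
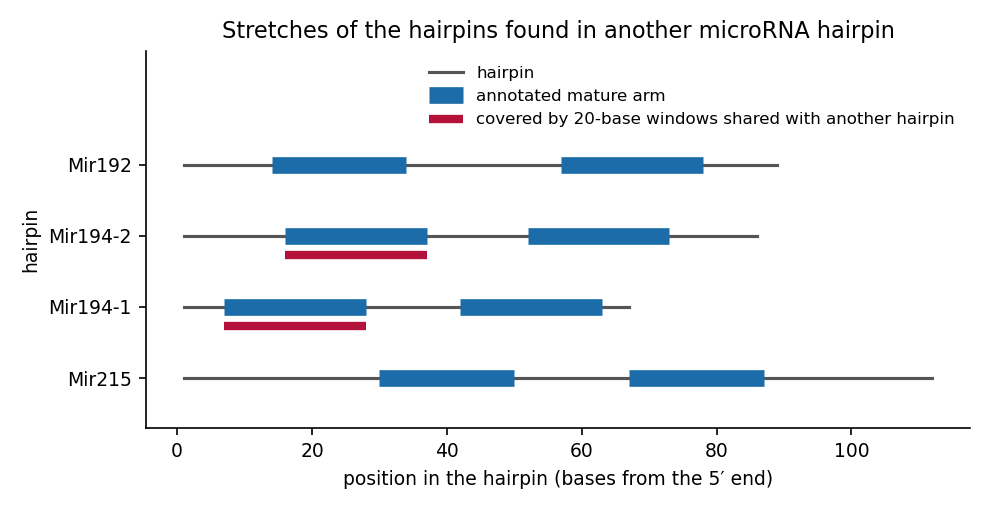
Hairpins of Mir192, Mir194-2, Mir194-1 and Mir215 drawn to scale, with the position in bases from the 5′ end on the x axis, annotated mature arms as blue blocks and, in red, the stretch covered by windows of 20 bases that occur in another RefSeq microRNA hairpin. The red stretch coincides with the 5′ mature arm of the Mir194 copies, positions 16 to 37 of Mir194-2 and 7 to 28 of Mir194-1, and there is none on Mir192 or Mir215.

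Shared windows were not rare among microRNAs. Of the 1005 hairpins, 162, or 16.1%, held at least 1 window of 20 bases found in another hairpin on either strand. Positions were not compared, so the 16.1% can include hairpins that overlap at 1 locus. Sharing between loci bears on the counts, because reads that mapped to several loci belong to no gene. They are given only as a total. That total was 1520712 reads in replicate 1 and 2044197 in replicate 2, which is 25.2% (pup 1) and 24.7% (pup 2) of all reads. The counts of Mir194-2 and Mir194-1 leave out every read placed at both loci, by an amount that was not measured. The counts of Mir192 and Mir215 share no such stretch with another listed hairpin.

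The levels of the 5 genes spanned more than 4 orders of magnitude, and the order was the same in both pups: Mir122, Mir192, Mir194-2, Mir194-1, Mir215. Together they made up 35.4% (replicate 1) and 36.6% (replicate 2) of all gene-strand microRNA counts, on average 36.0% ± 0.851 (SD, n = 2). These counts leave out the reads that mapped to several loci, so the shares are of uniquely placed reads only. Without Mir122 the 4 other genes made up 1.18% in replicate 1 and 1.12% in replicate 2. At each step of this order, both pups' values of the higher gene exceeded both pups' values of the next. Because a read here covers 1 mature microRNA and not a stretch of a long transcript, counts were not divided by hairpin length, and levels were not corrected for unequal ligation of different sequences.

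**Figure D2:**
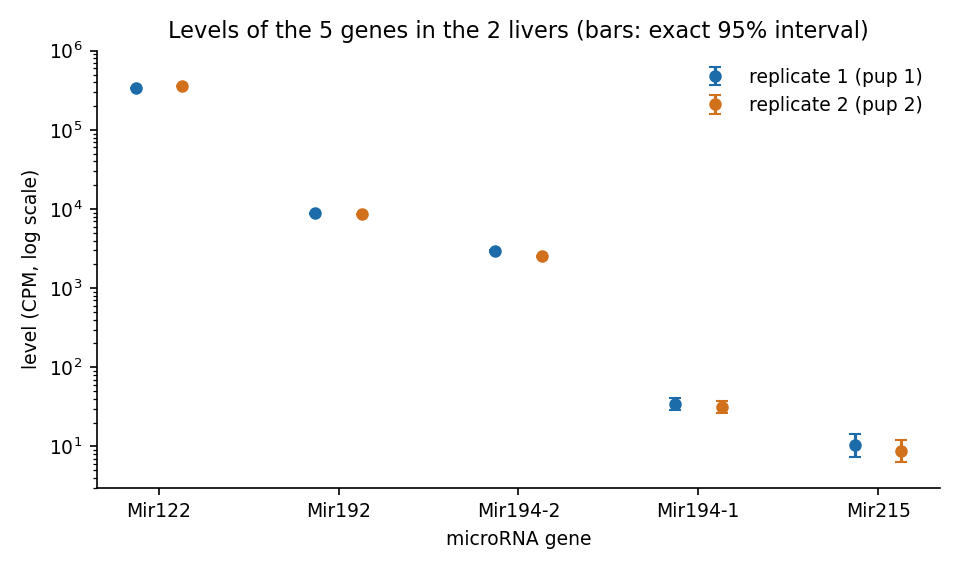
Level of each gene in CPM on a log axis, with replicate 1 left of replicate 2 and exact 95% binomial intervals as bars, which cover counting error only. The pups lie close together at each gene, and the genes are separated by gaps far larger than the distance between the pups, from 348624 CPM for Mir122 down to 9.67 CPM for Mir215.

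The gene pair on chromosome 19 supplied nearly all uniquely placed reads of the 2 clusters. Mir192 (ENSMUSG00000065523.1; 6264844 to 6264932, plus strand) had 30219 counts in replicate 1 and 39312 in replicate 2. The levels were 8829 CPM in pup 1 (exact 95% interval 8730 to 8929) and 8662 CPM in pup 2 (8577 to 8748), a mean of 8746 ± 118 CPM. It was the gene at place 22 of 312 detected genes in both pups. Mir194-2 (ENSMUSG00000065582.1; 6264643 to 6264728, plus strand) lies 115 bases upstream and overlaps, like Mir192, no other gene of the GENCODE M21 annotation. Its 10067 counts in pup 1 gave 2941 CPM and its 11455 counts in pup 2 gave 2524 CPM, with a mean of 2733 ± 295 CPM at place 51. Pup 1 was the higher of the 2 at Mir194-2 and, on this scaling, at Mir192, where the log2 ratio of pup 1 over pup 2 was -0.000398 with Mir122 left out of the totals.

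The duplicated pair on chromosome 1 was detected at 36 to 143 reads per gene and library. Mir194-1 (ENSMUSG00000065581.1; 185313319 to 185313385, plus strand) had 118 counts in pup 1, a level of 34.5 CPM (28.5 to 41.3), and 143 counts in pup 2, a level of 31.5 CPM (26.6 to 37.1). Mir215 (ENSMUSG00000065562.1; 185313581 to 185313692, plus strand), 195 bases downstream, had 36 counts in pup 1, a level of 10.5 CPM (7.37 to 14.6), and 40 counts in pup 2, a level of 8.81 CPM (6.30 to 12.002). The intervals of the pups overlapped at both genes, so no difference between the pups was detectable at this depth. Mir194-1 lies in an intron and Mir215 in an exon of the noncoding RNA 2010103J01Rik on the same strand, and both lie opposite an intron of Iars2, which encodes a mitochondrial isoleucyl-tRNA synthetase. Both genes stood well above the limit that a count of 0 allows, 0.877 CPM (replicate 1) and 0.661 CPM (replicate 2), from 3 counts per library.

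The chromosome 19 pair had 262 times the counts of the chromosome 1 pair in replicate 1 (exact 95% interval 223 to 308) and 277 times in replicate 2 (240 to 323), a mean ratio of 269.5 ± 11.2. For the seed family, Mir192 stood at 839 times Mir215 in replicate 1 (606 to 1199) and at 983 times in replicate 2 (722 to 1376). The ratio rested on 36 (pup 1) and 40 (pup 2) reads of Mir215, which sets the width of these intervals. Of the counts of both genes with this seed, Mir215 held 0.119% in replicate 1 and 0.102% in replicate 2. For the Mir194 copies, Mir194-2 stood at 85.3 times Mir194-1 in replicate 1 (71.2 to 103) and at 80.1 times in replicate 2 (67.9 to 95.1). The ratio of the pairs and that of the Mir194 copies compare only reads that could be placed at 1 copy: Mir194-1 supplied 118 of the 154 counts of the chromosome 1 pair in replicate 1 and 143 of the 183 in replicate 2. How reads placed at both copies divide between the loci is not in the tables, and the intervals do not cover it.

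Within the pairs the balance of uniquely placed counts ran in opposite directions. On chromosome 19 the Mir192 count was 3.002 times that of Mir194-2 in replicate 1 (2.93 to 3.07) and 3.43 times in replicate 2 (3.36 to 3.50), so the ratio differed between the pups by more than counting error. On chromosome 1 the seed partner of Mir192 was the weaker gene, with a Mir215 count of 0.305 times that of Mir194-1 in replicate 1 (0.204 to 0.446) and 0.280 times in replicate 2 (0.192 to 0.400). The intervals of the 2 clusters, which cover counting error only, lay far apart in both pups. The inverse ratio, Mir194-1 to Mir215, was 3.43 ± 0.210 by counts and 5.73 when each count was divided by the length of its hairpin. Both Mir194 counts lack the reads placed at both copies, so any such read given to Mir194-2 would lower the first of these ratios, and any given to Mir194-1 would raise the last. The number of such reads was not measured, so the direction on chromosome 19 holds for uniquely placed counts only.

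Mir122 (ENSMUSG00000065402.1; chromosome 18, 65248861 to 65248926, plus strand) was counted 1171596 times in replicate 1 and 1610867 times in replicate 2. Its level was 342309 CPM (341807 to 342812) in pup 1 and 354939 CPM (354499 to 355380) in pup 2, the highest of all genes in both pups. It lies in an exon of the noncoding gene AC157910.3 (65244287 to 65252621), its annotated host on the same strand. The Mir122 count was 38.8 times that of Mir192 in replicate 1 and 41.0 times in replicate 2. Against the other 4 genes together it was 29.0 times as high in replicate 1 and 31.6 times in replicate 2. Its SD over the pups was 2.56% of its mean, compared with 1.35% for Mir192, 10.8% for Mir194-2, 6.36% for Mir194-1 and 12.5% for Mir215.

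Strand gave a further check of what the counts hold. Mir122 had 5 opposite-strand reads in replicate 1 and 8 in replicate 2, against 1171596 (replicate 1) and 1610867 (replicate 2) on its own strand. The other 4 genes had 0 opposite-strand reads in both libraries. Over all microRNA genes, 4.64% of the assigned reads in replicate 1 and 4.50% in replicate 2 lay on the opposite strand, and Mir142b alone, the largest of these, held 27.2% (pup 1) and 27.3% (pup 2) of them. RefSeq places a gene named Mir122b within the Mir122 hairpin (65248863 to 65248921), which has no entry in the tables.

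**Figure D3:**
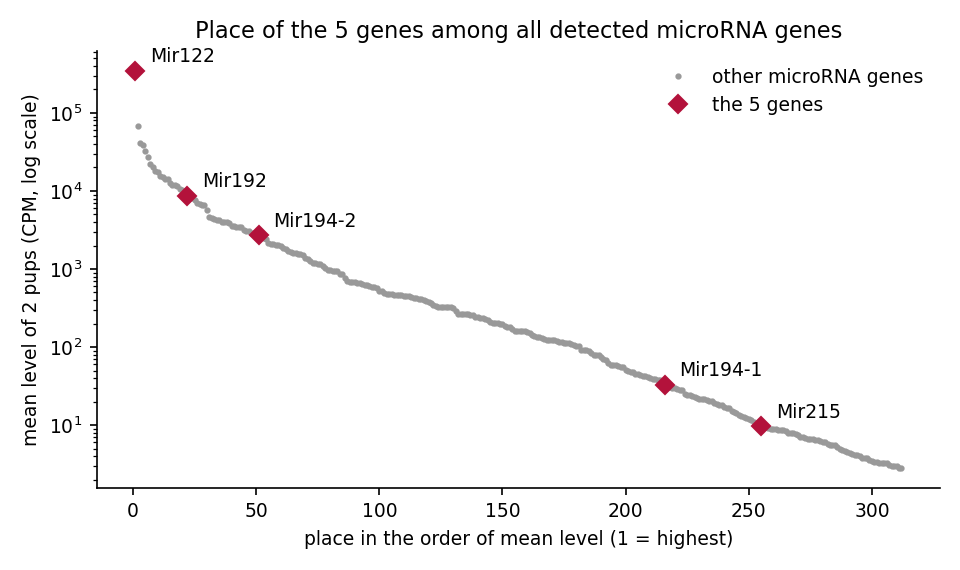
Mean level over both pups in CPM, on a log axis, against the place in the order of all 312 detected genes (at least 10 counts in both libraries), with the 5 genes as diamonds. Mir122 stands apart at the top, Mir192 and Mir194-2 lie in the upper part at places 22 and 51, and Mir194-1 and Mir215 lie in the lower part at places 216 and 255. Reads placed at several loci are not counted.

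In the order of all detected genes, Mir122 alone was separated from its neighbour, Mir126a of endothelial cells, which had 65978 CPM (pup 1) and 69174 CPM (pup 2). Mir192 fell between Mir17 (9573 ± 1516 CPM), of the proliferation-linked Mir17 cluster, and Mir379 (8552 ± 346 CPM), of the imprinted Dlk1-Dio3 cluster. Mir194-2 fell between Mir1193 (2787 ± 240 CPM) and Mir434 (2665 ± 270 CPM), which both belong to that same imprinted cluster. Mir194-1 fell between Mir449a (34.4 ± 3.14 CPM) and Mir19a (31.1 ± 2.19 CPM), and Mir215 between Mir26a-1 (9.78 ± 0.193 CPM) and Mir19b-1 (9.48 ± 0.636 CPM). At these 8 comparisons the values of the pups overlapped, so the exact place of the 4 genes was not resolved. The order also rests on uniquely placed reads. It can place a gene that shares its mature strand with another locus, such as Mir194-2 or Mir194-1, too low.

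The livers of the 2 pups were then set against each other, which measures how far littermates differ and is no comparison of conditions. Each gene was tested with a two-sided exact binomial test over 390 genes with Benjamini-Hochberg adjustment, which asks whether 2 libraries differ by more than counting error. Of the 5 genes, 2 were higher in replicate 1, Mir192 and Mir194-2, and 1 was lower, Mir122. Over all genes tested, 14.4% were higher and 15.9% lower in replicate 1, and 5 genes are too few to set 2 higher and 1 lower apart from these shares. Mir122 had a log2 ratio of replicate 1 over replicate 2 of -0.05 (exact 95% interval -0.06 to -0.05; adjusted p = 2.95e-194 in the exact binomial test). That is a fold of 0.964, a small difference measured over very many reads.

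Mir194-2 had a log2 ratio of 0.22 (0.18 to 0.26), or 1.17-fold, with an adjusted p of 8.39e-28 in the exact binomial test. Mir192 had a log2 ratio of 0.03 (0.01 to 0.05) with an adjusted p of 0.0421 in the exact test. This call depended on the scaling, and with Mir122 left out of the totals the Mir192 log2 ratio was -0.000398 with an adjusted p of 1, within a range of 0.00535 to 1 over the alternatives tried. Mir194-1 had a log2 ratio of 0.13 (-0.23 to 0.49; adjusted p = 0.708) and Mir215 one of 0.26 (-0.44 to 0.94; adjusted p = 0.704) in the exact test, intervals that include no difference. The exact binomial test thus called 3 of the 5 genes. The exact test of edgeR for negative binomial counts, whose common dispersion absorbs the variation from pup to pup, called 0 of them, and 0 had an unadjusted p below 0.05. That test called 0.513% of all genes.

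**Figure D4:**
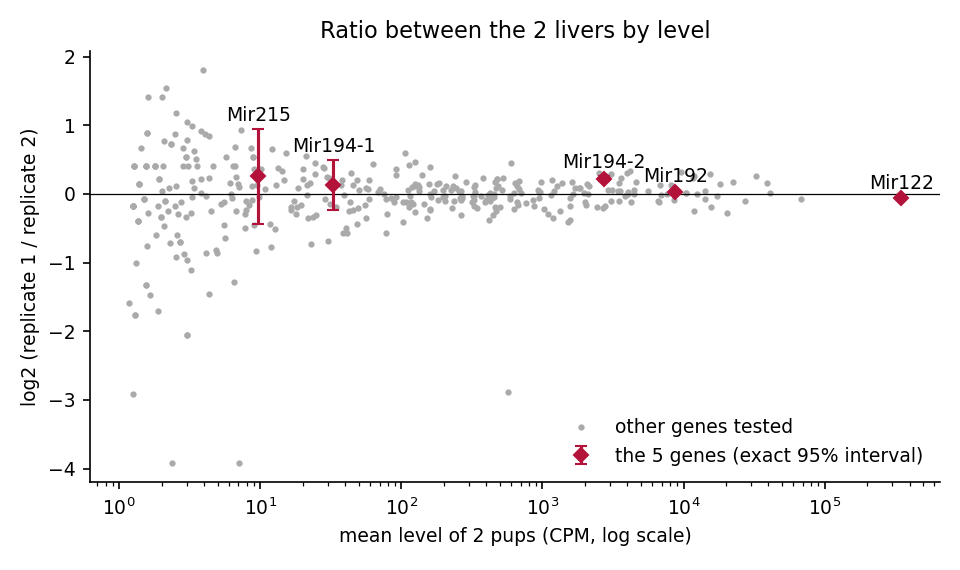
Log2 ratio of replicate 1 over replicate 2 against the mean level in CPM on a log axis, for genes whose counts over both libraries sum to at least 10 (those at 0 in 1 library are not drawn). The 5 genes, with exact 95% intervals, lie between -0.05 and 0.26 within the cloud of the other genes, whose scatter widens at low levels.

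The median log2 ratio was 0.13 over the 5 genes and 0.00 over all 390 genes tested. Where each library gave at least 100 counts, the log2 ratio had a median size of 0.09 over 4 of the 5 genes and of 0.12 over all 221. With 2 libraries, likeness of pattern reduces to nearness of this 1 ratio, taken over the 220 other genes with at least 100 counts in both. Nearest to Mir122 were Mir1247 and Mir433, nearest to Mir192 were Mir185 and Mir188, nearest to Mir194-2 were Mir296 and Mir301, and nearest to Mir194-1 were Mir132 and Mir223. The log2 ratios of these genes differed from those of their partners by 0.00146 to 0.00569. Mir215 had too few counts for this measure.

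Marker lists of the other cell types in whole liver were read beside these levels, since in bulk tissue fewer cells of a type and less RNA per cell cannot be told apart. Other microRNAs known as liver-enriched, most of which are also expressed elsewhere, held 7.05% of the counts in replicate 1 and 6.65% in replicate 2, led by Mir22, Mir101b, Mir30a and Mir148a. Of the 13 genes listed, 12 had an entry, 11 were tested, 4 were higher and 1 was lower in replicate 1, beside 14.4% higher and 15.9% lower over all 390 genes tested, with a median log2 ratio of 0.15. The hepatocyte-linked Mir802 had 71.0 CPM (replicate 1) and 86.6 CPM (replicate 2), and Mir148a had 3694 CPM (pup 1) and 3306 CPM (pup 2). In the exact binomial test between the pups, Mir802 did not pass (adjusted p = 0.0531) and Mir148a did (adjusted p = 4.74e-19).

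Endothelial Mir126a held 6.598% of the counts in replicate 1 and 6.92% in replicate 2. Mesenchymal markers, of which 4 of 5 had enough counts to be tested, held 1.499% (pup 1) and 1.58% (pup 2), led by Mir143 and Mir214. Leukocyte markers, 5 of 6 with an entry and led by Mir223, held 1.04% (pup 1) and 0.951% (pup 2), with Mir142 the gene lacking an entry. GENCODE M21 places Mir142 on the strand opposite Mir142b, within its interval, and the 45420 (pup 1) and 58328 (pup 2) opposite-strand reads of Mir142b outnumber the 35587 and 43171 counts of the whole leukocyte list in pup 1 and pup 2, which does not include them. Erythroid markers, led by Mir451a and Mir144, held 0.531% (pup 1) and 0.515% (pup 2), beside 34.2% (pup 1) and 35.5% (pup 2) for Mir122. Reads placed at several loci are in none of these shares. Markers of biliary or other epithelium, led by Mir429 and Mir200b, held 0.684% (pup 1) and 0.665% (pup 2). In replicate 1, 1 of 4 mesenchymal genes tested was lower, 2 of 5 leukocyte genes were higher and 1 lower, 1 of 3 erythroid genes was higher and 1 lower, and 1 of 5 epithelial genes was higher. Beside the 14.4% higher and 15.9% lower over all genes tested, lists of 3 to 5 genes are too short to be set apart. The median log2 ratios of these lists were -0.02, 0.06, 0.08 and 0.06, and Mir126a, which was lower, had -0.07. Their part in the differences between the pups at Mir122, Mir192 and Mir194-2 was not tested.

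Lists of tissues outside the liver were read as well, as Mir192, Mir194 and Mir215 are also known from gut and kidney. Intestine or kidney markers, led by Mir10a, Mir203, Mir31 and Mir10b, held 0.558% in replicate 1 and 0.550% in replicate 2, with 2 of 6 genes higher and 2 lower in replicate 1, beside 14.4% and 15.9% over all genes tested, and a median log2 ratio of -0.05. Kidney-linked Mir204 was at 7.30 CPM (pup 1) and 6.61 CPM (pup 2). Pancreas markers held 0.195% (pup 1) and 0.212% (pup 2), nearly all of it Mir375, with 1 of 4 genes lower in replicate 1 and a median log2 ratio of -0.40. Muscle markers held 0.0136% in replicate 1 and 0.101% in replicate 2, a difference carried by Mir206 (136 CPM in pup 1 and 1004 CPM in pup 2). Mir1a-1, Mir133a-1 and Mir133a-2 were at 0. Reads placed at several loci belong to no gene here, so a count of 0 does not show that these microRNAs were absent. Both muscle genes tested, Mir206 and Mir133b, were lower in replicate 1, with a median log2 ratio of -3.40. Whether muscle markers bear on any of the 5 genes was not tested.

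**Figure D5:**
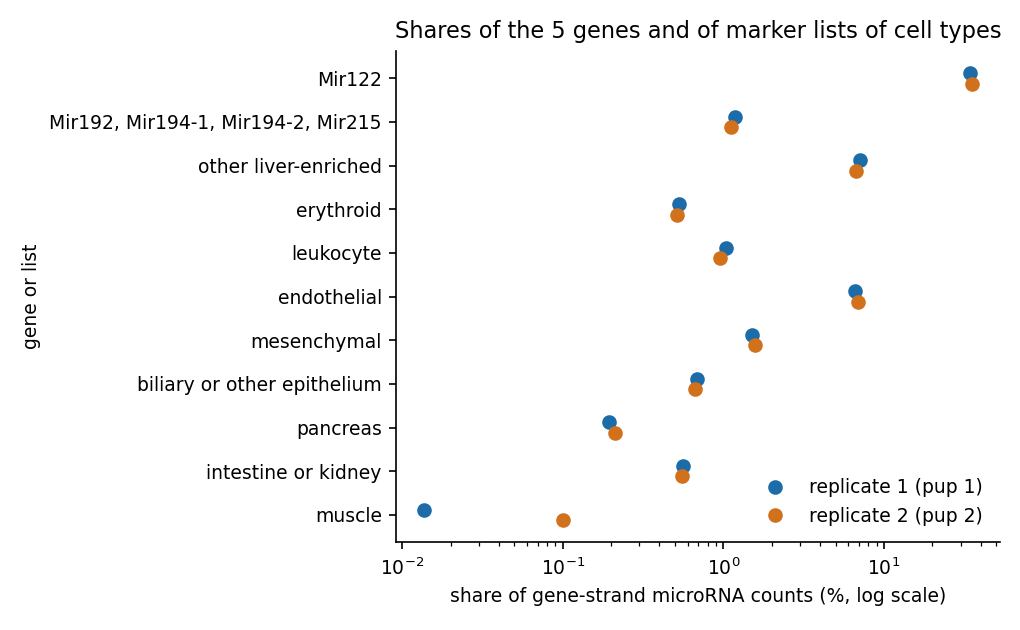
Share of gene-strand microRNA counts in percent, on a log axis, for Mir122, for the 4 other genes together and for each marker list, with replicate 1 above replicate 2. Mir122 exceeds every list in both pups, the 4 other genes lie near the mesenchymal list and the leukocyte list, which is drawn without Mir142, and the muscle list is the only one whose pups lie far apart.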

How the data were processed

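MicroRNA-seq counts of 2 newborn mouse livers, 1 library each, were used. The authors deposited raw counts of uniquely mapped reads per microRNA gene on mm10 with GENCODE M4, per the text deposited beside the files; the sources used here name no aligner or counter. The deposited columns have no header and were read as unstranded, gene-strand and opposite-strand counts. The unstranded and gene-strand columns sum with their unassigned reads to the same total, which does not tell the strands apart. The gene-strand column held 3422622 assigned reads in replicate 1 and 4538427 in replicate 2, and the opposite-strand column 166702 and 213909. Unassigned reads (8.87% of uniquely mapped reads in replicate 1 and 9.92% in replicate 2) stayed out of library sizes. Symbols and coordinates came from GENCODE M21, which matched 1894 of 1973 identifiers. Each entry covers a hairpin, so arms are not separated.

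CPM, exact Clopper-Pearson intervals and the exact binomial test used SciPy 1.17.1; TMM and the negative binomial test used edgeR 4.0.16, and size factors DESeq2 1.42.0. A quasi-likelihood test needs a second group. Intervals and limits (3 counts) cover counting error only, since PCR copies are not independent molecules. The libraries differed by 49.9 in chi-square per degree of freedom, so they are not 1 library deposited again. An exact sign-flip test over 2 pups cannot go below p = 0.5. The binomial test was tested on simulated counts with counting error and planted fold changes only. Those counts hold no variation between pups, so the check says nothing of how the test behaves under it. Members, marker lists, tests and alternatives were chosen with earlier results of these data known. Named genes were the 5 members, up to 4 leading genes of each list, the neighbours in level, the nearest by ratio and genes with a member's seed; Mir142b, Mir204, Mir802 and genes at 0 or without an entry were named after their values were seen.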

Additional observations from a re-analysis of the deposited data

Results flagged for a closer look

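Mir122 had 5 reads on the opposite strand in replicate 1 and 8 in replicate 2. These reads lie outside the gene-strand counts used for all levels, and both values exceed the 3 counts that a count of 0 allows. The gene-strand counts of Mir122 were 1171596 in replicate 1 and 1610867 in replicate 2, and the source of the opposite-strand reads was not tested.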

How the results depend on the processing

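Levels depended on the denominator, and no total that includes the reads mapped to several loci was tried. Against unstranded counts, Mir122 stood at 332689 CPM, Mir192 at 8346, Mir194-2 at 2608, Mir194-1 at 31.5 and Mir215 at 9.22 CPM. With uniquely mapped reads as the total, Mir122 stood at 315831 CPM, Mir192 at 7924, Mir194-2 at 2477, Mir194-1 at 29.9 and Mir215 at 8.76 CPM. With Mir122 out of the total, Mir192 stood at 13426 CPM, Mir194-2 at 4192.5 CPM, Mir194-1 at 50.6 CPM and Mir215 at 14.8 CPM. Levels from each pup alone are the pups' own values, which with 2 pups lie within 1 SD of the mean by construction and test nothing. Division by hairpin length, chosen after seeing the data, gave Mir122 to Mir192 53.8, Mir194-1 to Mir215 5.73, Mir192 to Mir215 1147, Mir194-2 to Mir194-1 64.4 and Mir192 to Mir194-1 199.9. Mir192 to Mir194-2 was 3.11 by that division. Ratios of each pup alone, and those of unstranded counts, could hardly differ from the reported ones by construction.

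The count of genes that differed between the pups was 118 of 390 (30.3%) by the exact binomial test. It was 112 to 123 under 6 alternatives of that test, but the share called moved with the genes tested. Without a filter on low counts 112 of 656 genes (17.1%) were called, and with at least 100 counts in both libraries 112 of 221 (50.7%). The negative binomial exact test of edgeR, which takes the spread between the pups as noise, called 2 of 390. The calls of Mir122 and Mir194-2 were lost under that test alone. The log2 ratio of Mir192 was -0.000398 with Mir122 left out, and its call was also lost with unstranded counts, TMM and no filter on low counts. No paired analysis was possible because the series used here holds 1 group, and leaving out a pup leaves no comparison between pups. Depth limits Mir215 and Mir194-1 most.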
